A study of Mus musculus with 6 samples.

Results

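Endocannabinoids are lipid messengers that the spiny projection neurons of the striatum release backwards onto the terminals that excite or inhibit them. The messenger 2-arachidonoylglycerol is cut from diacylglycerol by the lipases encoded by Dagla and Daglb and is broken down by the hydrolases encoded by Mgll, Abhd6 and Abhd12. Anandamide is released from an N-acylated phospholipid by the phospholipase D encoded by Napepld and is broken down by the amide hydrolase encoded by Faah. Both act on the cannabinoid receptor CB1, encoded by Cnr1, which lowers transmitter release and is a known regulator of corticostriatal plasticity. These 8 genes were taken by name from the deposited table. All 8 were among its 34745 genes, and all 8 passed the filter on low counts that left 15267 genes for testing.

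The libraries were 3 from mice heterozygous for Ash1l (Ash1l het) and 3 from wild type (WT) mice, all C57BL/6 and aged 1 year, from dorsal striatum. Ash1l encodes a histone methyltransferase that acts on lysine 36 of histone H3. No source used here describes the allele or states that each library is a separate animal, and the p-values therefore cover the spread among these libraries, which may be technical. Library totals ran from 14421259 to 18798694 counts in Ash1l het and from 12080663 to 17381781 in WT. The labels' protocol describes males, yet Xist, the RNA of the inactive X chromosome, stood between 1956 and 2957 CPM (counts scaled to library size) in all 6 libraries, and 4 Y-linked genes together had at most 1 count per library. The 8 spiny projection neuron markers were present in every library. They summed to between 5974 and 7352 CPM in Ash1l het and between 6263 and 7362 CPM in WT. None of the 13 marker classes examined held a gene called by edgeR's quasi-likelihood test. That test called 0.0131% of all tested genes, so the absence of calls does not show equal cell content. Ash1l itself had 281, 198 and 253 CPM in Ash1l het, against 308, 295 and 293 CPM in WT. Its log2 fold change was -0.29 (SE 0.13), with an edgeR quasi-likelihood adjusted p of 0.858.

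None of the 8 endocannabinoid genes passed the comparison of Ash1l het with WT at an adjusted p under 0.05 in edgeR's quasi-likelihood test, a threshold that 0.0131% of all tested genes passed. At an unadjusted p under 0.05 the count was also 0 of 8, against 5.78% of tested genes. DESeq2, the exact test of edgeR and limma-voom likewise gave 0 of 8 at either level. Over all 15267 tested genes these tools gave 39, 27 and 2 adjusted calls, and 751, 715 and 903 genes at an unadjusted p under 0.05. With the quasi-likelihood test the unadjusted count was 1 of 8 without Ash1l het replicate 2 (Mgll), where 1002 of 15615 tested genes had such a p. It was 1 of 8 without Ash1l het replicate 3 (Cnr1), where 1691 of 15448 tested genes did. In all 8 genes the values of the 2 groups overlapped, whereas 11.7% of tested genes had groups that did not. By sign, 3 were higher and 5 lower in Ash1l het, and 48.6% of all tested genes were lower. The median log2 fold change of the 8 was -0.11, against 0.0063 over all tested genes. The genes differed among themselves in how closely the replicates matched, Dagla least and Daglb most.

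**Figure D1:**
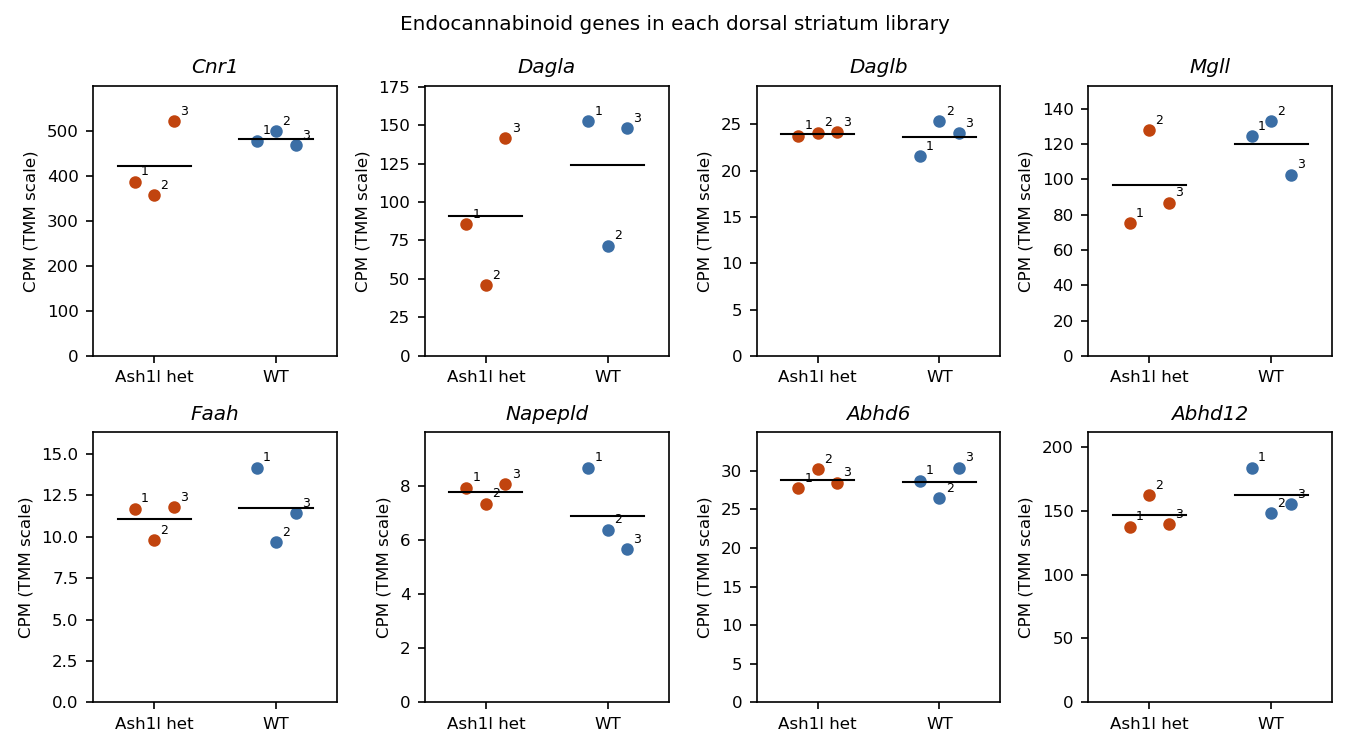
Level of each gene in CPM on the TMM scale (y axis, from 0) in the 3 Ash1l het libraries and the 3 WT libraries. Numbers are replicates and black lines are group means. The groups overlap in every panel, and Dagla spreads most, from 45.9 to 141 CPM in Ash1l het and from 71.7 to 152 CPM in WT.

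The receptor gene Cnr1 (ENSMUSG00000044288; GRCm38 chromosome 4, 33924593 to 33948831, plus strand) was the most abundant of the 8. It had 387, 356 and 521 CPM in the 3 Ash1l het libraries, against 478, 498 and 468 CPM in WT. Ash1l het replicates 1 and 2 lay below every WT library, while Ash1l het replicate 3 was the highest of all 6. Cnr1 averaged 421 ± 87.6 CPM in Ash1l het libraries and 481 ± 15.5 CPM in WT libraries (SD, n = 3 each). The log2 fold change was -0.19 (SE 0.15), which places the Ash1l het level at 87.5% of WT with a 95% interval of 69.7% to 109.9% (edgeR quasi-likelihood adjusted p = 0.897). The value leaned on single libraries, at -0.38 when Ash1l het replicate 3 was left out, with an unadjusted p of 0.00593 (edgeR quasi-likelihood adjusted p = 0.268), and at -0.09 when Ash1l het replicate 2 was.

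The 2 Ash1l het libraries with low Cnr1 also stood apart in other cell markers. Gfap, the intermediate filament of astrocytes, had 412, 733 and 104 CPM in Ash1l het, against 154, 62.1 and 83.7 CPM in WT. The 5 astrocyte markers summed to between 725 and 1497 CPM in Ash1l het and between 759 and 906 CPM in WT, and 3 of the 5 were higher by sign. Of the 8 spiny projection neuron markers, 7 were lower by sign in Ash1l het, against 48.6% of all tested genes. Among them Bcl11b, a transcription factor of these neurons, had 328, 316 and 438 CPM in Ash1l het, against 460, 473 and 429 CPM in WT. Adora2a, the adenosine receptor of the indirect pathway, had 215, 235 and 346 CPM in Ash1l het, against 312, 396 and 354 CPM in WT. In both genes Ash1l het replicates 1 and 2 lay below every WT library and replicate 3 lay inside the WT range. The part of these markers in the Cnr1 values was not tested. In tissue RNA, fewer cells of a type and less RNA per cell cannot be told apart.

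The genes whose pattern over the 6 libraries was most like that of Cnr1, among 9551 other genes with a mean of at least 10 CPM, were Atp5g1, Rasgef1b and Ergic1. Pearson's r of log2(CPM + 1) was 0.996 for Atp5g1, a subunit of mitochondrial ATP synthase, 0.995 for Rasgef1b and 0.994 for Ergic1. These are the highest of 9551 correlations over 6 points and describe these libraries only.

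Dagla (ENSMUSG00000035735; GRCm38 chromosome 19, 10245265 to 10304877, minus strand), the main neuronal synthase of 2-arachidonoylglycerol, varied more within each genotype than the other 7 genes. It had 85.9, 45.9 and 141 CPM in Ash1l het, against 152, 71.7 and 148 CPM in WT. The highest library stood 3.08 times above the lowest within Ash1l het and 2.13 times within WT. The counts behind these values were 1263, 705 and 2572 in Ash1l het, against 1842, 1200 and 2553 in WT. The SD of log2(CPM + 1) within a genotype was 0.71, and of the 9552 genes with a mean of at least 10 CPM, whose median was 0.16, 1.34% had a larger one. Dagla averaged 91.1 ± 47.9 CPM in Ash1l het libraries and 124 ± 45.3 CPM in WT libraries (SD, n = 3 each). The log2 fold change of -0.44 (SE 0.49) had a 95% interval of -1.67 to 0.79 (edgeR quasi-likelihood adjusted p = 0.925), so neither halving nor a rise of 1.5-fold in Ash1l het lies outside it. Leaving out Ash1l het replicate 2 moved it to -0.12, while leaving out Ash1l het replicate 3 moved it to -0.91 and WT replicate 2 to -0.72. Without WT replicate 1 it was -0.27.

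The low Dagla libraries were Ash1l het replicate 2, WT replicate 2 and Ash1l het replicate 1, in that order. Slc17a7, the vesicular glutamate transporter of cortical neurons, had 53.2, 8.60 and 32.8 CPM in Ash1l het, against 37.8, 20.7 and 30.0 CPM in WT. The cortical markers Slc17a7, Tbr1 and Neurod6 were each lowest in Ash1l het replicate 2 and next lowest in WT replicate 2. In Ash1l het replicate 1, however, these markers were at their highest of the 6 while Dagla was the third lowest. The spiny projection neuron sum was 5974, 6316 and 7352 CPM in Ash1l het, against 7117, 6263 and 7362 CPM in WT, and the same 3 libraries were the lowest. The low sum in WT replicate 2 came with Pde10a, a phosphodiesterase of these neurons, at 984 CPM there, against 2016 to 2449 CPM in the other 5 libraries. No other marker of these neurons was at its lowest or next lowest in WT replicate 2. There Adora2a (396 CPM) and Bcl11b (473 CPM) were at their highest of the 6, and Drd2 (398 CPM) lay inside the range of the other libraries. The part of these cell markers in the Dagla values was not tested. The 3 genes most like Dagla over the 6 libraries were Zfp592 (r = 0.988), Neurl1b (r = 0.976) and Nptxr, a neuronal pentraxin receptor (r = 0.973), among 9551 genes.

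**Figure D2:**
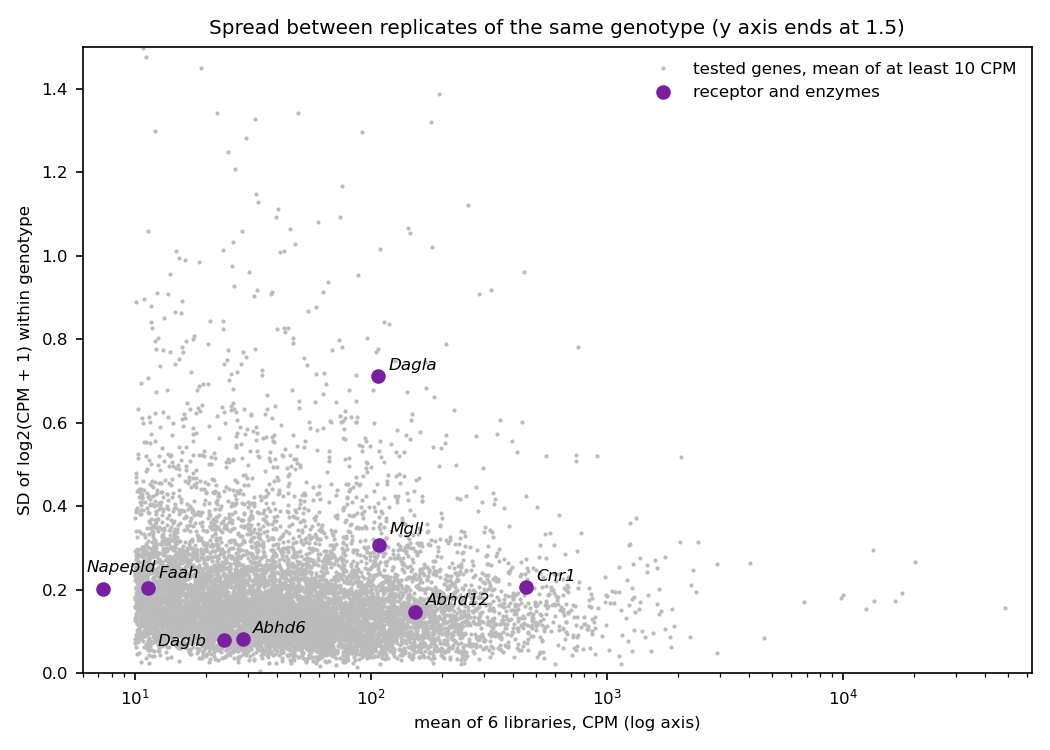
Spread between replicates of the same genotype (y axis, SD of log2(CPM + 1), pooled over the 2 genotypes) against the mean of 6 libraries (x axis, CPM, log scale) for tested genes with a mean of at least 10 CPM (grey; 12 of 9552 lie above the axis limit of 1.5) and for the receptor and enzymes (purple). Dagla lies at 0.71, above Mgll at 0.31, while Daglb and Abhd6 lie at 0.08.

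Daglb (ENSMUSG00000039206; GRCm38 chromosome 5, 143464584 to 143505942, plus strand), the related lipase best known from microglia and macrophages, was among the steadiest of the 8. It had 23.8, 24.1 and 24.1 CPM in Ash1l het, against 21.6, 25.3 and 24.0 CPM in WT, so that the Ash1l het libraries fell inside the WT range. The log2 fold change was 0.02 (SE 0.12), or 101.4% of WT with a 95% interval of 84.6% to 121.5% (edgeR quasi-likelihood adjusted p = 0.985). A change of 1.5-fold in either direction lies outside that interval. In the GENCODE M21 annotation of GRCm38 Daglb shares 2309 exonic bases with Rac1 on the opposite strand, and no source used here says whether strand was used in counting, so its counts are uncertain. Rac1, a small GTPase, had 338, 302 and 68.1 CPM in Ash1l het, against 355, 331 and 318 CPM in WT. Daglb stayed at 24.1 CPM in Ash1l het replicate 3, where Rac1 was lowest.

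Per length Dagla exceeded Daglb in every library. Counts per kilobase of annotated exon gave ratios of Dagla to Daglb of 6.01, 3.17 and 9.75 in Ash1l het, against 11.7, 4.71 and 10.2 in WT. The groups overlapped (two-sided exact permutation p = 0.5).

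Mgll (ENSMUSG00000033174; GRCm38 chromosome 6, 88724412 to 88828360, plus strand) encodes monoacylglycerol lipase, which removes most 2-arachidonoylglycerol in brain. It had 75.1, 128 and 86.8 CPM in Ash1l het, against 124, 133 and 103 CPM in WT. Ash1l het replicates 1 and 3 lay below every WT library, and Ash1l het replicate 2 lay inside the WT range. Mgll averaged 96.5 ± 27.6 CPM in Ash1l het libraries and 120 ± 15.6 CPM in WT libraries (SD, n = 3 each), a log2 fold change of -0.31 (SE 0.20). The fitted level was 80.5% of WT with a 95% interval of 58.9% to 110.0%, and the edgeR quasi-likelihood p, 0.149 unadjusted and 0.889 adjusted, was the smallest of the 8. Leaving out Ash1l het replicate 2 gave -0.57 with an unadjusted p of 0.00275 (edgeR adjusted p = 0.581), and leaving out Ash1l het replicate 1 gave -0.16. An antisense model, Gm26588, overlaps 167 exonic bases of Mgll and had 19 to 27 counts in Ash1l het and 13 to 27 in WT. The genes most like Mgll among 9551 were Mtif3 (r = 0.987), the Polycomb subunit gene Suz12 (r = 0.985) and Ly6h (r = 0.984). Cnr1 and Mgll both lay below every WT library in Ash1l het replicate 1. In addition Cnr1 was low in Ash1l het replicate 2 and Mgll in Ash1l het replicate 3. The r between Cnr1 and Mgll over the 6 libraries was 0.06.

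The other hydrolases of 2-arachidonoylglycerol had smaller fitted differences. Abhd6 (ENSMUSG00000025277; GRCm38 chromosome 14, 8002902 to 8056555, plus strand), a postsynaptic membrane hydrolase, had 27.7, 30.2 and 28.5 CPM in Ash1l het, against 28.7, 26.4 and 30.4 CPM in WT. Its log2 fold change was 0.01 (SE 0.11), and the 95% interval of 84.7% to 120.3% of WT leaves a change of 1.5-fold outside (edgeR quasi-likelihood adjusted p = 0.988). Abhd12 (ENSMUSG00000032046; GRCm38 chromosome 2, 150832493 to 150904741, minus strand), which also hydrolyses lysophosphatidylserine, had 137, 162 and 140 CPM in Ash1l het, against 184, 148 and 155 CPM in WT. Ash1l het replicates 1 and 3, the libraries with low Mgll, were also the lowest for Abhd12. The log2 fold change of Abhd12 was -0.15 (SE 0.12), at 90.3% of WT with a 95% interval of 74.9% to 109.0% (edgeR quasi-likelihood adjusted p = 0.899). The patterns of Mgll and Abhd12 over the 6 libraries had r = 0.70, as a description of 6 points that share depth and tissue.

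Among the 3 hydrolases Abhd12 gave the larger part of the transcripts per length. Per kilobase of exon it made up 64.7%, 60.2% and 62.9% of their sum in Ash1l het, against 64.0%, 58.4% and 62.4% in WT. Mgll made up 19.7%, 26.4% and 21.7% in Ash1l het, against 24.1%, 29.2% and 23.0% in WT, and Abhd6 made up 15.6%, 13.4% and 15.3% in Ash1l het, against 11.95%, 12.45% and 14.62% in WT. The groups overlapped for each share and for the sum, which was 75.2, 95.4 and 78.6 CPM per kilobase in Ash1l het, against 102, 89.7 and 87.9 in WT.

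**Figure D3:**
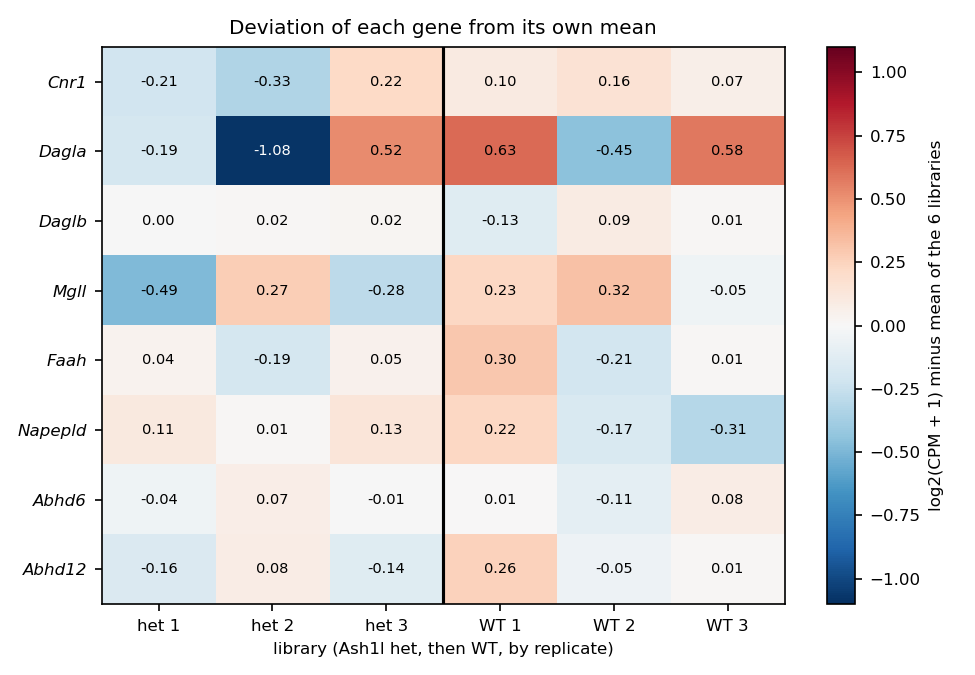
Deviation of each gene in each library from its own mean over the 6 libraries, on the log2(CPM + 1) scale, with the Ash1l het libraries on the left and the WT libraries on the right. Dagla is lowest in Ash1l het replicate 2 (-1.08), Mgll in Ash1l het replicate 1 (-0.49) and Cnr1 in Ash1l het replicate 2 (-0.33), while Daglb and Abhd6 stay between -0.13 and 0.09.

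The 2 anandamide enzymes were the least abundant per length. Napepld (ENSMUSG00000044968; GRCm38 chromosome 5, 21662901 to 21701396, minus strand) had 7.95, 7.36 and 8.08 CPM in Ash1l het, from 117, 113 and 147 counts, against 8.69, 6.40 and 5.67 CPM in WT, from 105, 107 and 98 counts. The Ash1l het libraries lay close together and above WT replicates 2 and 3, while WT replicate 1 was the highest of all. The log2 fold change was 0.18 (SE 0.20), at 113.4% of WT with a 95% interval of 83.4% to 154.2% (edgeR quasi-likelihood adjusted p = 0.920). Faah (ENSMUSG00000034171; GRCm38 chromosome 4, 115967145 to 116017926, minus strand) had 11.7, 9.77 and 11.8 CPM in Ash1l het, against 14.2, 9.68 and 11.4 CPM in WT. Its log2 fold change was -0.08 (SE 0.18), at 94.6% of WT with a 95% interval of 71.7% to 125.0% (edgeR quasi-likelihood adjusted p = 0.963). WT replicate 1 was the highest library for Faah as for Napepld.

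The ratio of Napepld to Faah per kilobase of exon was the only quantity of 8 ratios, shares and sums computed within libraries whose groups did not overlap. It was 1.35, 1.49 and 1.36 in Ash1l het, against 1.22, 1.31 and 0.985 in WT. The ratio averaged 1.40 ± 0.08 in Ash1l het libraries and 1.17 ± 0.17 in WT libraries (SD, n = 3 each), a ratio of geometric means of 1.20. The exact permutation p was 0.1 (two-sided), the smallest that 3 against 3 allows, unadjusted for the 8 quantities. Counting intervals overlapped between the genotypes: the 95% interval from counts ran from 1.07 to 1.70 in Ash1l het replicate 1 and from 1.02 to 1.67 in WT replicate 2. Intervals from counts cover counting error only.

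**Figure D4:**
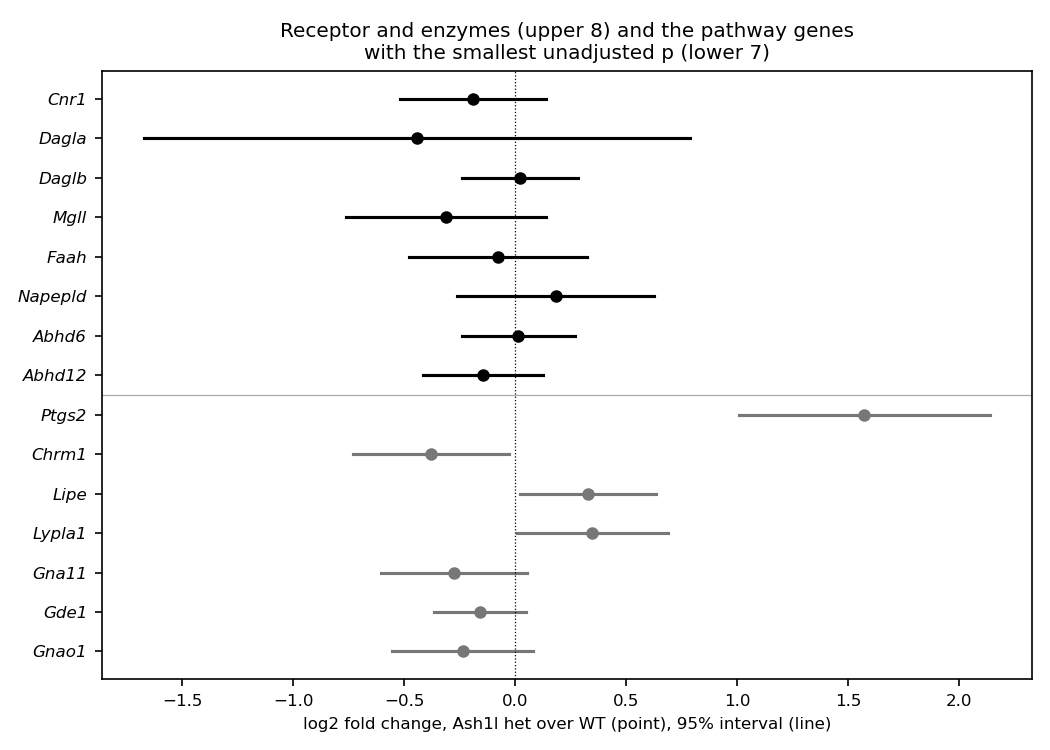
Log2 fold change of Ash1l het over WT with its 95% interval from the edgeR quasi-likelihood fit (x axis) for the receptor and enzymes (black) and for 7 other pathway genes with small unadjusted p (grey). All 8 black intervals hold 0, from the widest, Dagla at -1.67 to 0.79, to the narrow ones of Daglb and Abhd6, and Ptgs2 lies farthest right at 1.57.

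The order of levels was compared per length. The deposited FPKM (fragments per kilobase of gene and library size) rest on a length that adds up every distinct annotated exon, so that stretches shared by overlapping exons are counted more than once. For 7 of the 8 genes that length equals the sum of distinct GENCODE M21 exons to the base, and the exception is Abhd6, whose end differs between the table and GENCODE. For Cnr1 it was 12325 bases, against 6444 bases when overlapping exons are merged, and the excess ran from 1.08 times for Abhd6 to 1.91 times for Cnr1. Of 11532 genes averaging 10 counts or more with the same ends in both annotations, 88.4% had a length within 1 base of that sum and 15.0% of the merged one. A fixed length per gene leaves the comparison between genotypes untouched, but it shifts levels between genes.

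On merged exons the mean over 6 libraries was 70.0 CPM per kilobase for Cnr1, 54.6 for Abhd12, 21.3 for Mgll, 18.7 for Dagla, 12.1 for Abhd6, 2.49 for Daglb, 1.86 for Napepld and 1.46 for Faah. Abhd12 stood clear of Mgll, Abhd6 of Daglb and Daglb of Napepld, in that no library of the higher gene fell to the range of the lower. Cnr1 and Abhd12 overlapped, as did Mgll and Dagla, Dagla and Abhd6, and Napepld and Faah, so the order within those pairs is not clear of the spread. Mgll exceeded Dagla in 2 of 6 libraries although its mean was higher. On the deposited FPKM scale the means were 36.5 for Cnr1, 33.1 for Abhd12, 13.7 for Mgll, 11.3 for Abhd6 and 11.2 for Dagla, followed by 1.87 for Daglb, 1.11 for Napepld and 0.948 for Faah, so Abhd6 and Dagla change places.

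**Figure D5:**
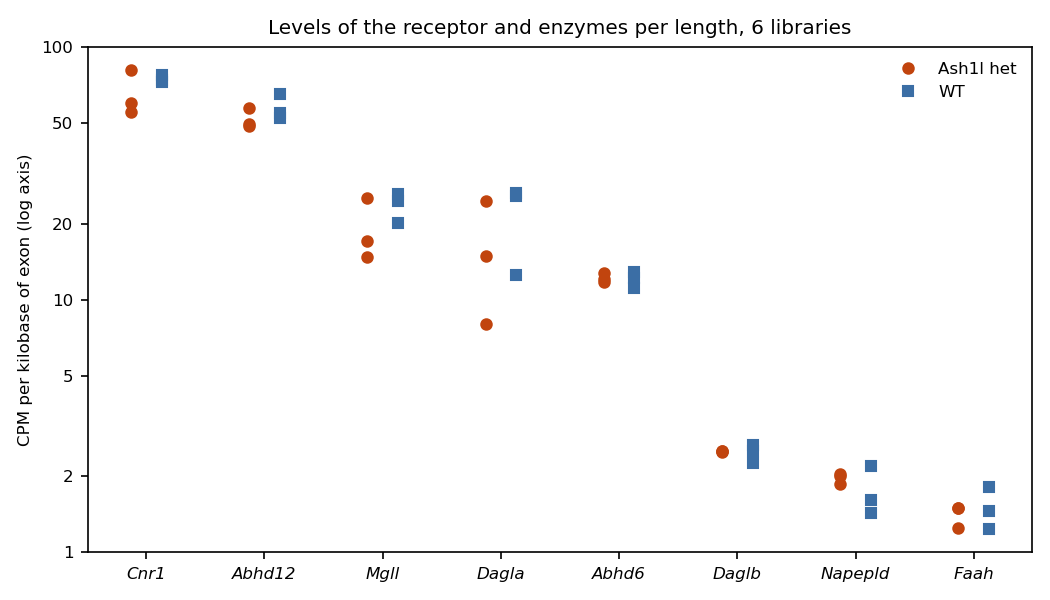
Level of each gene in CPM per kilobase of merged exon (y axis, log scale) in the 3 Ash1l het libraries (circles) and the 3 WT libraries (squares), ordered by the mean of the 6. Steps separate Abhd12 from Mgll and Abhd6 from Daglb, and the genotypes overlap for every gene.

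The promoter windows of the most and the least abundant gene per length are shown because both lie on chromosome 4 and differ in base composition. They run from 250 bases before to 50 after an annotated start, are taken from RefSeq (GRCm38.p6), and are the windows nearest to the start in the table. The RefSeq table held 6 of the 8 genes, and Dagla and Abhd12 were not among them. Capitals mark CpG dinucleotides.
Cnr1, chr4:33924394-33924693, plus strand: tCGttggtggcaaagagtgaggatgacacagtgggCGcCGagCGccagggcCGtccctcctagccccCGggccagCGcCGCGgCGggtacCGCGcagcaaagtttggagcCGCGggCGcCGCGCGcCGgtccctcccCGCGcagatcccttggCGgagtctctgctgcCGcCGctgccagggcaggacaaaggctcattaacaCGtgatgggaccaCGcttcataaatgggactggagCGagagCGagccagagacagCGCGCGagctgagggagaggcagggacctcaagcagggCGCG
Faah, chr4:116017875-116018174, minus strand: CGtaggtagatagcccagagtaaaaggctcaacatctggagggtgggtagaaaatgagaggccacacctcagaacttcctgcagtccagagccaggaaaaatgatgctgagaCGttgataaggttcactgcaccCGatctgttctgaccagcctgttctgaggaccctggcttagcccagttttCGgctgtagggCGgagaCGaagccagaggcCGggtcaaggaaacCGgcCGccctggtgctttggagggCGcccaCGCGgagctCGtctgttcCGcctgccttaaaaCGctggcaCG
The Cnr1 window held 33 CpG and was 69.0% G and C, and 91.4% of 32851 RefSeq windows of this length held fewer CpG. The Faah window held 16 CpG at 57.7% G and C, and 67.0% of windows held fewer. Of the other genes with a window, Mgll held 32 CpG, Napepld 28, Abhd6 24 and Daglb 11, so Napepld, next to Faah at the bottom of the order, held more than Abhd6. Windows at other annotated starts held 40 and 5 CpG for Cnr1, 42 for Mgll and 26 for Abhd6. These counts describe the windows only.

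The wider pathway was described with 51 other genes listed by role, of which 50 were in the table and 40 were tested. By the quasi-likelihood test of edgeR 0 of the 40 passed over all genes, against 0.0131% of tested genes, and 4 had an unadjusted p under 0.05, against 5.78%. By sign 20 were higher and 20 lower in Ash1l het, against 48.6% of all tested genes lower. The median log2 fold change of the 40 was -0.0092. A single pathway gene, Ptgs2, passed with DESeq2 (1 of 40, against 0.255% of tested genes) and with edgeR's exact test (1 of 40, against 0.177%). At an unadjusted p under 0.05 those tools gave 2 of 40 each. Over all 15267 tested genes DESeq2 gave 751 at that level and edgeR's exact test gave 715.

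Ptgs2 encodes cyclooxygenase-2, which can oxidise both endocannabinoids. It had 9.31, 6.32 and 6.71 CPM in Ash1l het, against 3.15, 2.39 and 2.03 CPM in WT. The genotypes did not overlap, as in 6.18% of tested genes in that direction. Its log2 fold change was 1.57 (SE 0.25), and its adjusted p was 0.299 with edgeR's quasi-likelihood test, 0.000255 with DESeq2 and 7.63e-05 with edgeR's exact test. Of 4 endothelial and mural markers 3 were higher by sign, and of 5 blood cell markers 5 were, with 0 called in either class. Over all tested genes 48.6% were lower by sign, and edgeR's quasi-likelihood test called 0.0131%. The endothelial and mural markers summed to 170, 143 and 184 CPM in Ash1l het, against 135, 163 and 144 CPM in WT, and the blood cell markers to 123, 110 and 56.1 CPM in Ash1l het, against 25.1, 35.4 and 23.0 CPM in WT. Their part in the Ptgs2 values was not tested.

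Of 8 genes upstream of diacylglycerol formation, 6 were lower by sign, against 48.6% of all tested genes. In edgeR's quasi-likelihood test 0 passed, against 0.0131% of tested genes. In that test 1, Chrm1, had an unadjusted p under 0.05, against 5.78% of tested genes. Chrm1, the muscarinic M1 receptor, had 120.6, 109.0 and 167.7 CPM in Ash1l het, against 169.6, 179.5 and 168.4 CPM in WT, a log2 fold change of -0.38 (SE 0.16). Ash1l het replicates 1 and 2 were low, as for Cnr1, and replicate 3 lay just under the lowest WT library. The groups of Chrm1 thus did not overlap, as in 5.53% of tested genes in that direction. Without Ash1l het replicate 3 the value for Chrm1 was -0.59. Gna11, a G protein alpha subunit that couples such receptors to phospholipase C, stood at a log2 fold change of -0.28 (SE 0.15), with -0.14 when Ash1l het replicate 1 was left out and -0.44 when replicate 3 was. The phospholipase C genes Plcb1, Plcb3 and Plcb4 had -0.10, -0.12 and 0.09, and Grm5 had -0.11.

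Of 9 partners and transducers of the receptor, 4 were higher and 5 lower by sign, against 48.6% of all tested genes lower. In edgeR's quasi-likelihood test 0 passed, against 0.0131% of tested genes, and 0 had an unadjusted p under 0.05, against 5.78%. Gnao1, the G protein alpha subunit to which CB1 couples with Gi, stood at -0.24 on the log2 scale (SE 0.14), and at -0.11 without Ash1l het replicate 2. Sgip1, which holds CB1 at the cell surface, had 263, 158 and 253 CPM in Ash1l het, against 256, 273 and 254 CPM in WT, and its low value in Ash1l het replicate 2 falls in the library where Cnr1 and Dagla were lowest. Cnrip1, which binds the receptor's tail, had a log2 fold change of -0.05 (SE 0.13).

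Other receptors for these lipids were scarce. Cnr2, the cannabinoid receptor of immune cells, had 9, 10 and 3 counts in Ash1l het, against 6, 4 and 3 counts in WT. Gpr55 had 4, 0 and 0 counts in Ash1l het, against 8, 10 and 5 counts in WT. The ion channel gene Trpv1 had 2 counts in all 6 libraries together, and Gpr18 and Gpr119 had none. Cnr2, Gpr55 and Trpv1 were under the filter and were not tested, and Ppara, a nuclear receptor, had a log2 fold change of 0.03 (SE 0.27).

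Of 8 tested genes for other steps of N-acylethanolamine formation, 3 were higher and 5 lower by sign, against 48.6% of all tested genes lower. In edgeR's quasi-likelihood test 0 had an unadjusted p under 0.05, against 5.78% of tested genes. Gde1, a glycerophosphodiesterase of a second route to anandamide, had 96.6, 90.6 and 95.5 CPM in Ash1l het, against 104, 110 and 103 CPM in WT, with a log2 fold change of -0.16 (SE 0.09). Its groups did not overlap, as in 5.53% of tested genes in that direction. Of 8 tested genes for other hydrolases and oxygenases, 6 were higher and 2 lower by sign, against 48.6% of all tested genes lower. Of these 8 genes, 3 had an unadjusted p under 0.05 in edgeR's quasi-likelihood test, against 5.78% of tested genes. Beside Ptgs2 these included Lipe, hormone-sensitive lipase, at 0.33 (SE 0.14) and Lypla1, a lysophospholipase, at 0.35 (SE 0.15). Neither Lipe nor Lypla1 stayed under an unadjusted p of 0.05 with DESeq2 or edgeR's exact test, and without Ash1l het replicate 2 Lypla1 stood at 0.19. The groups of Lipe and Lypla1 did not overlap, as in 6.18% of tested genes in that direction. Naaa, an acid amidase that also breaks down N-acylethanolamines, had 39.6, 37.9 and 18.1 CPM in Ash1l het, against 16.7, 33.3 and 34.0 CPM in WT. Ash1l het replicate 3 and WT replicate 1 held about the same low level, and the groups overlapped. Of 6 carriers, 4 were higher and 2 lower by sign, and the lipid chaperone gene Fabp5 had a log2 fold change of 0.06 (SE 0.23).

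The remaining likeness searches gave, among 9551 genes, Mettl17 (r = 0.990) for Daglb, Col25a1 (r = 0.997) for Abhd6, Snx33 (r = 0.989) for Abhd12 and Mphosph9 (r = 0.973) for Faah, and among 9552 genes Gabpb1 (r = 0.974) for Napepld. Among the 8 genes themselves the highest r over the 6 libraries was 0.79, between Dagla and Faah, and the lowest was -0.89, between Daglb and Faah. Dagla and Cnr1 had 0.71, and in both Ash1l het replicate 2 was the lowest library. WT replicate 2, which was low for Dagla, was the next highest for Cnr1.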

How the data were processed

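RNA from 6 dorsal striatum libraries was analysed, 3 from Ash1l het and 3 from WT mice, and per the labels' protocols the kit was for stranded mRNA. The authors deposited raw counts per gene and FPKM values for the same genes, per the file headers. Build GRCm38 and the tools HISAT2, StringTie, edgeR, FastQC and CASAVA are named, per the submitters' processing notes; versions and roles: not given in the sources used here. All 8 genes, the gene lists and the tests were chosen with earlier results of these data known.

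Counts were fitted on genotype alone in edgeR 4.0.16 under R 4.3.3 (quasi-likelihood test, TMM scaling, filterByExpr at a minimum count of 10), and p-values were adjusted by Benjamini-Hochberg over 15267 genes. CPM are on the TMM scale. SE and 95% intervals come from the fit, which was checked on simulated data. Genes named beyond the 8 are Ash1l, cell markers, the 8 listed pathway genes with the smallest unadjusted p (1 of them is not reported here), listed genes with no count, and for each of the 8 the genes with the highest Pearson r. Other pathway genes, Rac1 and Gm26588 were named after their values were seen. Levels between genes were compared as CPM per kilobase of merged GENCODE M21 exons. In the wider list, 3 names were matched through RefSeq synonyms. Alternatives used DESeq2 1.42.0, the exact test of edgeR, limma 3.58.1, other scalings and filters, FPKM, a replicate block, another threshold and each library left out.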

Additional observations from a re-analysis of the deposited data

How the results depend on the processing

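The 8 genes gave 0 calls under all 17 alternatives. Calls over all genes numbered 2 with the quasi-likelihood test of edgeR, 39 with DESeq2 and 27 with edgeR's exact test, and 1 to 13 with single libraries left out; the cause was not tested. The pathway list gave 0 calls except for 1 each (Ptgs2) with DESeq2 and the exact test. Cnr1, Dagla, Mgll and Abhd12 stayed lower and Napepld higher by sign throughout, with leave-one-out log2 fold changes of -0.38 to -0.09, -0.91 to -0.12, -0.57 to -0.16, -0.23 to -0.05 and 0.05 to 0.37. Values near 0 changed sign with single libraries left out: Faah ran from -0.21 to 0.070, Abhd6 from -0.041 to 0.062 and Daglb from -0.042 to 0.070. Ash1l stayed lower, at -0.41 to -0.16. On the log2(FPKM + 1) scale Ptgs2 had 0.76, since the pseudocount shrinks low genes. A replicate block gave 3 calls over all genes, 0 among the 8 and 0 in the pathway list. At an unadjusted p under 0.05 the block gave 2 of the 8, against 0 without it. Over all 15267 tested genes it gave 797 at that level, against 882 without it. The 2 genes were Dagla at -0.51 and Mgll at -0.34, each with an edgeR quasi-likelihood adjusted p of 0.900. The SE of Dagla was 0.16 with the block and 0.49 without it. Deviations of same-numbered libraries correlated at 0.10, -0.05 and 0.02. Only the libraries numbered 1 correlated best with their own number, and Ash1l het replicate 3 correlated best with WT replicate 2, at 0.14. The labels name no batch, and whether same-numbered libraries share one was not tested. At most 214 counts per library lay behind Faah and Napepld, which limits their precision.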

Other observations

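Rac1, which shares exonic bases with Daglb on the opposite strand, had 4974, 4639 and 1238 counts in Ash1l het, against 4284, 5544 and 5497 counts in WT, and was singled out after its values were seen. Its log2 fold change was -0.50 (SE 0.59), and edgeR's quasi-likelihood fit put its adjusted p at 0.928. Its SD of log2(CPM + 1) within a genotype was 0.91, against 0.71 for Dagla and 0.52 for Pde10a. The library far below the others of its genotype was Ash1l het replicate 3 for Rac1 and WT replicate 2 for Pde10a. Dagla was low in Ash1l het replicate 2 and in WT replicate 2, so Dagla and Pde10a share WT replicate 2 as a low library. Their cause was not tested.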
